A study of Mus musculus with 2 samples.

Results

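The miR-26 family of mouse has 3 hairpin genes, Mir26a-1, Mir26a-2 and Mir26b, each lying within a gene for a CTDSP phosphatase, and it was described here in small RNA from stomach at embryonic day 16.5. The members were chosen by gene symbol alone, and all 3 had a row among the 1973 genes of the deposited tables. All samples formed 1 group with 2 biological replicates of healthy B6NCrl embryos, in which stomachs of both sexes were pooled and RNA under 30 nucleotides was sequenced. Replicate 2 pooled 41 embryos, no such number is stated for replicate 1, and both libraries carry one donor label. With a single tissue, age and genotype there was no contrast between conditions, so members were compared with each other, with other microRNA (miRNA) genes, and between the 2 libraries.

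A miRNA gene is transcribed as a longer RNA, from which a hairpin is cut and then trimmed to a duplex of a 5p and a 3p arm, and the arm loaded into an Argonaute protein represses mRNAs that pair with its seed, bases 2 to 8. The miR-26 genes are transcribed with their hosts Ctdspl, Ctdsp2 and Ctdsp1. These hosts encode small C-terminal domain phosphatases, which repress neuronal genes outside the nervous system and can dephosphorylate the retinoblastoma protein. The 5p arm is the usual guide strand of the family, and the mRNA of the chromatin enzyme Ezh2 is among its best known targets. In bulk tissue, fewer cells of a type and less RNA per cell cannot be told apart.

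The mature arms are shown first because they decide which reads can be given to which gene. RefSeq (GRCm38.p6) held all 3 hairpins and 6 annotated arms, which come to 5 different sequences. They are written 5′ to 3′ with the seed in capitals:
miR-26a-5p, from both Mir26a-1 and Mir26a-2: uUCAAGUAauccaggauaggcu
miR-26b-5p: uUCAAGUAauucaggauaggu
miR-26a-1-3p: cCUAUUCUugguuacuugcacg
miR-26a-2-3p: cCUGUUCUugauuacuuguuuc
miR-26b-3p: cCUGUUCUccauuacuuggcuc
All 5p arms had the seed UCAAGUA, and among the RefSeq mouse miRNAs no gene outside the family had it. From miR-26a-5p to miR-26b-5p, counted from 1 at the 5′ end, the changes were C11U and C21U, with 19 of 21 compared bases identical, and miR-26b-5p was 21 bases long against 22. The 3p arms differed more. miR-26a-1-3p and miR-26a-2-3p were identical at 16 of 22 bases, with A4G inside the seed. miR-26a-2-3p and miR-26b-3p shared the seed CUGUUCU and 18 of 22 bases.

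The whole hairpins show how far the identity between Mir26a-1 and Mir26a-2 reached. Capitals mark bases covered by a stretch of 22 bases, about the length of a miRNA read, that also occurs in a hairpin at another locus:
Mir26a-1: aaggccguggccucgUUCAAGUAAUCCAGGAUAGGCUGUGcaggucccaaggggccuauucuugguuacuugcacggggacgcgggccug
Mir26a-2: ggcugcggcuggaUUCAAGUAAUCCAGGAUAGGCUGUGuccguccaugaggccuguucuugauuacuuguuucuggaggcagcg
Mir26b: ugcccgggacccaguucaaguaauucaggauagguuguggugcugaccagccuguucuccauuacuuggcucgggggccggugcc
The 2 Mir26a hairpins shared an unbroken run of 25 bases, from base 16 to 40 of Mir26a-1 and from base 14 to 38 of Mir26a-2, which begins with the first base of miR-26a-5p and runs past its last. Of the 22-base windows of Mir26a-1, 65 of 69 were found in no hairpin at another locus among 2202 annotated mouse miRNA hairpins, as were 59 of 63 for Mir26a-2 and all 64 for Mir26b. The 4 shared windows of either Mir26a gene were shared with the other Mir26a gene and no further hairpin. They began at the first 4 bases of miR-26a-5p, so a read starting with that arm matched both genes, while a read starting 1 base earlier, or lying on the 3p arm, matched one. The longest run that Mir26b shared with Mir26a-1 was 11 bases, and with Mir26a-2 it was 10 bases.

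**Figure D1:**
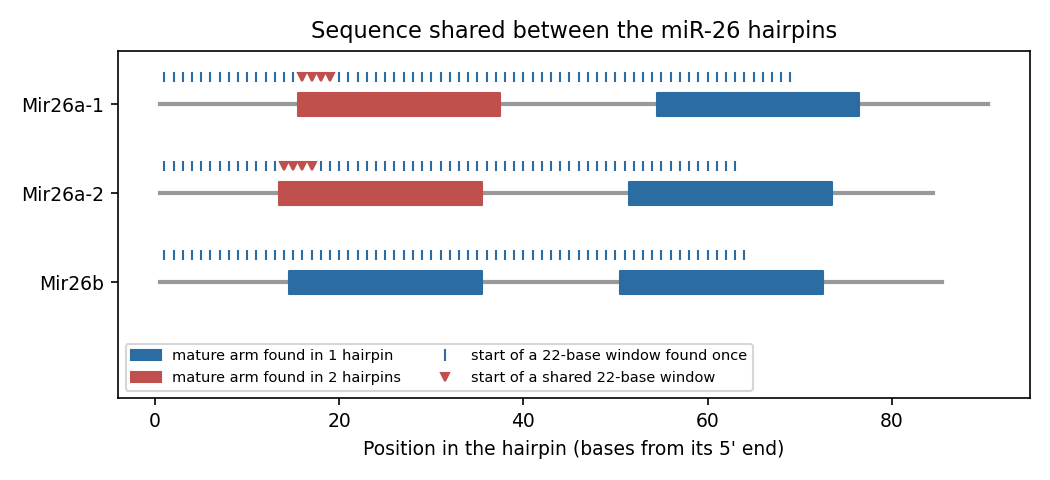
Position along each miR-26 hairpin in bases from its 5′ end. Boxes are mature arms, blue where 1 hairpin holds the sequence and red where 2 do, and marks above show where each 22-base window starts: 4 windows of Mir26a-1 and 4 of Mir26a-2 are shared (red), and none of Mir26b.

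The genes lie on 3 chromosomes, all on the plus strand (GRCm38, the assembly that mm10 names). Mir26a-1 lies on chromosome 9 from 119031796 to 119031885, in intron 5 of 7 of the longest Ctdspl transcript, 1543 bases after one exon and 1650 before the next. Mir26b lies on chromosome 1 from 74394310 to 74394394, in intron 4 of 6 of Ctdsp1, an intron of 564 bases. Mir26a-2 lies on chromosome 10 from 126995530 to 126995613, in intron 5 of 7 of the longest Ctdsp2 transcript. In the GENCODE M21 annotation, 2 of the 4 Ctdsp2 transcripts start at base 126995613, which is the last base of the Mir26a-2 hairpin, so that 1 base of the gene falls in their first exon. All 3 hairpins thus sit between exons of a coding transcript of their host, and Mir26a-2 alone among them also touches an annotated exon. The distance from the host's start ran from 2801 bases for Mir26b to 16813 bases for Mir26a-2 and 105343 bases for Mir26a-1. The host mRNAs have no row in these tables, which hold miRNA genes.

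**Figure D2:**
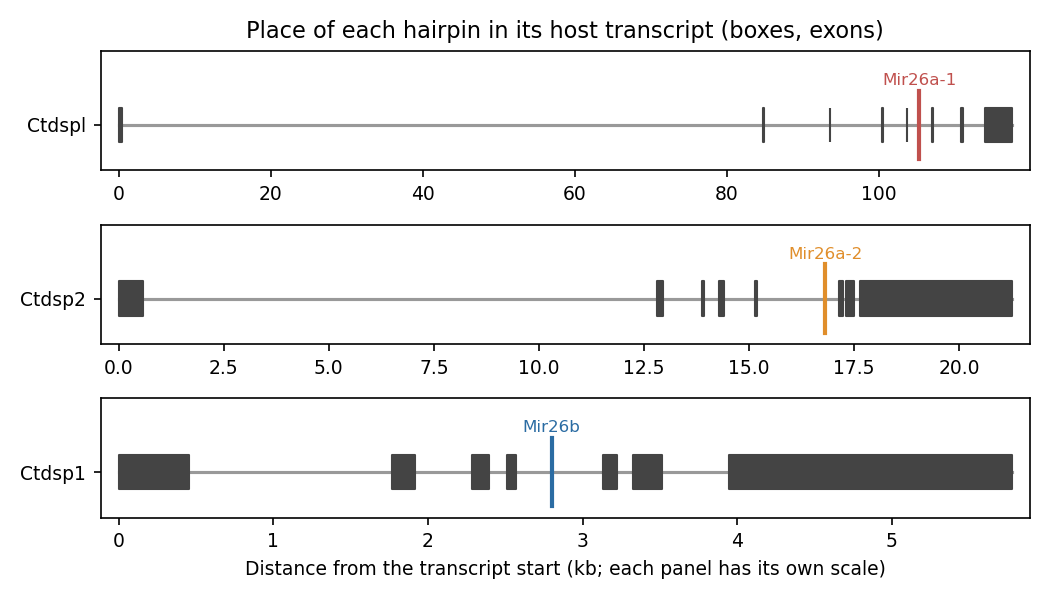
Longest coding transcript of each host gene, drawn as distance from its start in kb, with exons as boxes and the hairpin as a coloured line. Ctdspl is drawn over a far longer scale than Ctdsp1, and each hairpin lies in an intron well after the first exon.

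By counted reads, Mir26b was among the most abundant miRNA genes of the tissue, and both Mir26a genes had few such reads. Mir26b had 197265 sense reads in replicate 1 and 244500 in replicate 2. As counts-per-million of the sense-assigned reads (CPM) it stood at 25504 and 30625 CPM, ranking 8 and 6 among all genes. Both libraries were high for this gene, and its mean was 28065 ± 3621 CPM (SD, n = 2). Its share of the sense-assigned reads was 2.55% in replicate 1 (95% interval 2.54% to 2.56%) and 3.06% in the other library (3.05% to 3.07%). Intervals of shares and levels are exact Clopper-Pearson, and they cover counting error only. The SD between the libraries was 60.6 times the SD that counting alone gives, 59.7 CPM.

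Mir26a-2 had 427 reads in replicate 1 and 278 in replicate 2, or 55.2 CPM (95% interval 50.1 to 60.7) and 34.8 CPM (30.8 to 39.2), with a mean of 45.0 ± 14.4 CPM (SD, n = 2). Mir26a-1 had 78 and 84 reads, or 10.1 CPM (7.97 to 12.6) and 10.5 CPM (8.39 to 13.03), with a mean of 10.3 ± 0.309 CPM. Mir26a-2 was therefore above Mir26a-1 in counted reads of both libraries, with intervals that did not overlap. Both genes were far over the limit that a count of 0 allows (3 counts), which is 0.388 CPM for replicate 1 and 0.376 CPM for replicate 2. The SD of Mir26a-2 was 6.01 times its counting SD, while that of Mir26a-1 was below its counting SD of 1.14 CPM. No read of any of the 3 genes lay on the opposite strand.

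The order Mir26b, Mir26a-2, Mir26a-1 held in the counted reads of each library. In counted reads Mir26b exceeded the sum of both Mir26a genes 391-fold in replicate 1 (95% interval 358 to 427) and 675-fold in replicate 2 (609 to 751). Mir26b alone made up 99.7% and 99.9% of the counted miR-26 reads. Within the Mir26a reads, Mir26a-2 held 84.6% in replicate 1 (81.1% to 87.6%) and 76.8% in replicate 2 (72.1% to 81.0%), and it exceeded Mir26a-1 by 5.47-fold and 3.31-fold. Together the family held 2.56% of the sense-assigned reads of replicate 1 and 3.07% of those of replicate 2, a mean of 2.81% ± 0.361 (SD, n = 2).

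**Figure D3:**
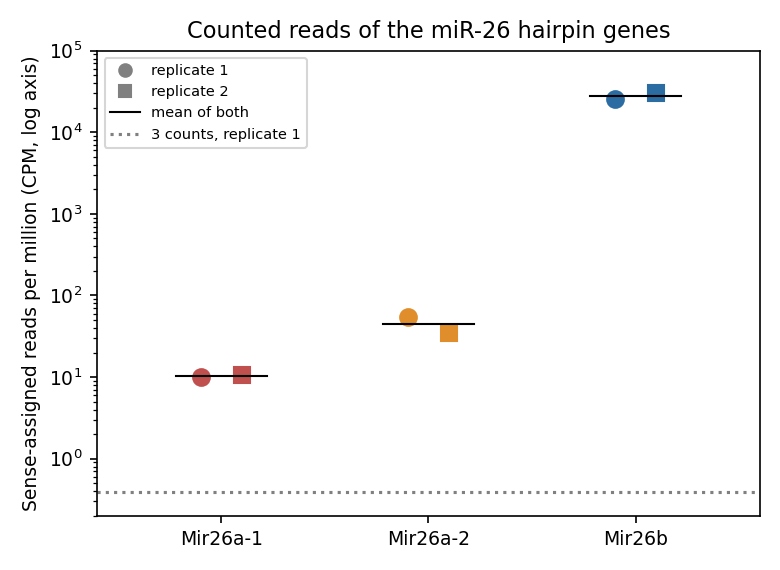
Sense-assigned reads in CPM (log axis) of each miR-26 gene, with a circle for replicate 1, a square for replicate 2, a line for the mean of both and a dotted line at 3 counts. Mir26b sits at 25504 and 30625 CPM, and the Mir26a genes sit between 10.1 and 55.2 CPM in both libraries.

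The gap between Mir26b and Mir26a, the order and folds of Mir26a-2 over Mir26a-1, and the rank of Mir26b among all genes hold for counted reads. The tables give reads placed in several positions as a total of their own, 3944541 for replicate 1 (25.1% of its reads) and 4015646 for replicate 2 (25.2%). That total is not divided among genes, and the gene counts are inferred to leave those reads out. The counted reads of Mir26b equalled 5.00% of it in replicate 1 and 6.09% in replicate 2. How many of its reads were miR-26a-5p is not given by the tables, so the level of the mature miR-26a was not measured by these counts, and its order against miR-26b is not settled. Reads that start with miR-26a-5p match both Mir26a genes, so how much of it came from each gene was not measured. The counts are per hairpin gene, so which arm the Mir26a reads came from was not measured either.

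Families with the same layout, copies that share an arm and a gene with the same seed whose own arm occurs in 1 hairpin, were then set beside miR-26. There were 14 such sets with reads of the copies and of at least 1 such gene in both libraries. They held 1 to 8 genes of the same seed, and in 24 of the 40 pairings of such a gene with its copies the gene was above the sum of the copies in both libraries, while in the other 16 it was below. The plot shows for each set the gene with the most reads, a choice made by level that favours the gene over the copies, so the direction and the gaps in it are a description. Reads of the copies placed in several positions are inferred to be left out, which also favours the gene. The pairings and folds therefore hold for counted reads only, and the order of the mature arms is not settled. The set of miR-26a-5p held 1 such gene, Mir26b, as did 4 others. In these, Mir107 was 20.6-fold and 20.5-fold, Mir196b 9.46-fold and 34.7-fold, Mir19a 4.41-fold and 3.12-fold and Mir7b 2.88-fold and 2.92-fold above the sum of its copies in replicates 1 and 2. Sets without reads of the single gene in both libraries were not among them, such as that of Mir218-1 and Mir218-2, which summed to 49.1 and 54.5 CPM against 0.388 and 0 CPM for Mir7002. In the set of miR-92a-3p all 5 genes of the same seed were below the copies Mir92-1 and Mir92-2, which summed to 3222 and 1797 CPM against 458 and 438 CPM for Mir25.

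**Figure D4:**
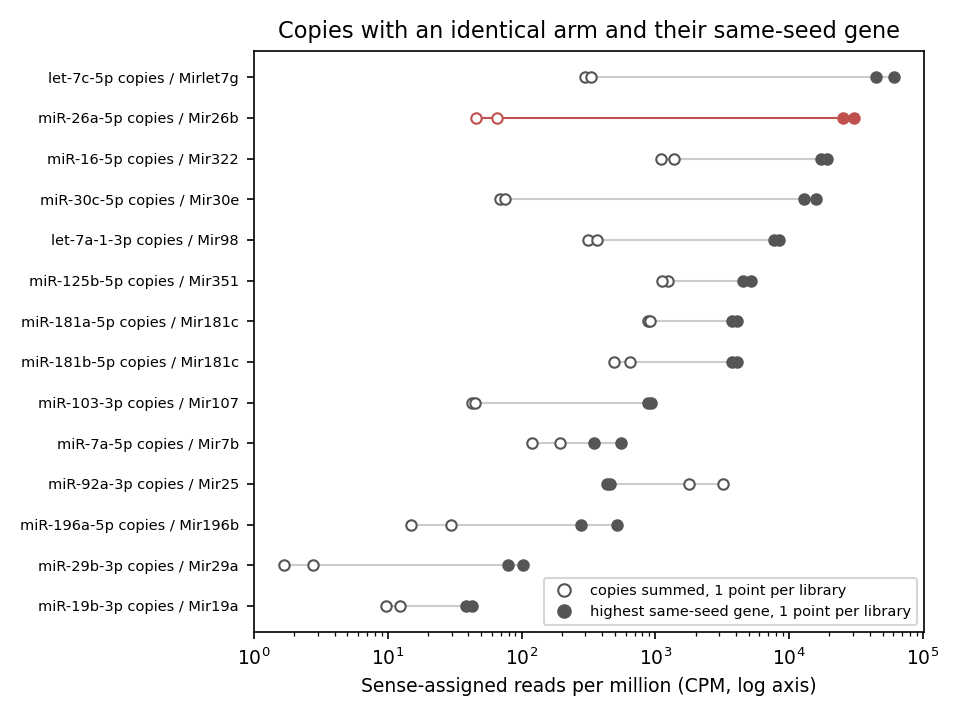
Sense-assigned reads in CPM (log axis) for 14 sets of copies that share a mature arm, with open circles for the copies summed and filled circles for the highest gene of the same seed with an arm of its own, 1 point per library. The miR-26 set is in red, and the gene drawn was picked by its level where a set held several, as in that of miR-92a-3p, where Mir25 still lies to the left of the copies.

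A set with a like arrangement of hosts was that of Mir103-1, Mir103-2 and Mir107, which lie in introns of the pantothenate kinase genes Pank3, Pank2 and Pank1, another family of related hosts. Mir107, with an arm of its own, stood at 884 and 922 CPM. Mir103-2 stood at 39.8 and 43.6 CPM and Mir103-1 at 3.10 and 1.38 CPM. Mir107 thus exceeded the sum of the copies 20.6-fold in replicate 1 and 20.5-fold in replicate 2, so that the fold of this set was nearly the same in both libraries while that of miR-26 was 391 and 675. As in miR-26, the gene with its own arm had the most counted reads, and 1 copy had many more than the other. Reads of the Mir103 copies in several positions are inferred to be left out, so the order of miR-103 and miR-107 is not settled. The list of 13 miRNA genes in introns of related hosts, which adds the Slit-hosted Mir218 genes, the Mir128 genes and the myosin-hosted Mir208a, Mir208b and Mir499, had a median of 37.7 CPM, against 0 CPM over all 1973 genes. In it, 10 of 13 genes reached 10 CPM in both libraries, against 277 of all 1973, and Mir26b had the most counted reads by far. The list includes the miR-26 genes themselves. It also includes copies with shared arms, whose reads in several positions are inferred to be left out.

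A wider description used the 916 genes of the tables with a RefSeq mature sequence. In 56 genes some arms but not all occurred in a hairpin at another locus, the class that holds Mir26a-1 and Mir26a-2. Of these, 33 reached 10 CPM in both libraries and 3 reached a mean of 1000 CPM, led by Mirlet7f-2 at 2826 CPM. The median of all 56 genes was 18.6 CPM. Over all 916 genes, 254 reached 10 CPM in both libraries, the median was 0.478 CPM and 89 reached a mean of 1000 CPM. Mir26a-2 ranked 19 and Mir26a-1 ranked 33 of the 56. In the 814 genes with no shared arm, the class of Mir26b, 216 reached 10 CPM in both libraries, the median was 0.448 CPM and 85 reached 1000 CPM. Of the 46 genes with all arms shared, 35 had no read, while 49 of the 56 genes with an arm of their own beside a shared one had at least 1. Of all 916 genes, 284 had no read, among them 242 of the 814 with no shared arm.

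By level alone, the genes nearest to each member were unrelated to it by seed. Mir26b ranked 8 by mean CPM, just under the Hox-cluster gene Mir10a at 29647 ± 2450 CPM (SD, n = 2) and the endothelial gene Mir126a at 29039 ± 14.7 CPM. Below it were the epithelial genes Mir429 at 23612 ± 3020 CPM and Mir203 at 22271 ± 7172 CPM. The gaps from Mir26b to Mir10a and Mir126a, 0.08 and 0.05 in log2(CPM + 1), were within the SD of Mir26b, so their order is not settled. Mir26a-2 ranked 226, between Mir666 and Mir301b above and Mir505 and Mir147 below, all within 0.07 in log2(CPM + 1). Mir26a-1 ranked 287, between Mir3061 and Mir7688 above and Mir1968 and Mir6944 below, within 0.05. These neighbours of the Mir26a genes had SDs from 1.04 to 6.44 CPM, and the ranks near them are not resolved.

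Between the 2 libraries the members did not move together. After scaling by the trimmed mean of M values (TMM), the log2 ratio of replicate 1 to replicate 2 was -0.45 for Mir26b (95% interval -0.45 to -0.44), -0.24 for Mir26a-1 (-0.71 to 0.22) and 0.48 for Mir26a-2 (0.26 to 0.71). Mir26b was thus 1.36-fold higher in replicate 2 and Mir26a-2 was 1.40-fold higher in replicate 1. The share of Mir26a among the counted miR-26 reads was 0.255% in replicate 1 (0.234% to 0.279%) and 0.148% in replicate 2 (0.133% to 0.164%), with intervals that did not overlap. All 3 genes passed the filter of a mean of 10 CPM, Mir26a-1 narrowly at 10.3 CPM. At an adjusted p under 0.05 and at least 2-fold, 0 of the 3 members differed, against 7.96% of the 289 genes tested (7.27% higher and 0.692% lower in replicate 1, 21 and 2 genes). That split depended on the rule, with 33 genes higher and 22 lower when no filter on low counts was set. At any fold, 2 of the 3 members differed, Mir26b and Mir26a-2, against 76.1% of the genes tested, 111 of them higher and 109 lower in replicate 1. The two-sided exact binomial test with Benjamini-Hochberg adjustment over all genes tested gave an adjusted p of 2.38e-05 for Mir26a-2 and 0.346 for Mir26a-1, and for Mir26b a value too small for the software to write. This test compares 2 libraries and carries no spread between animals, and at these depths small folds pass it.

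**Figure D5:**
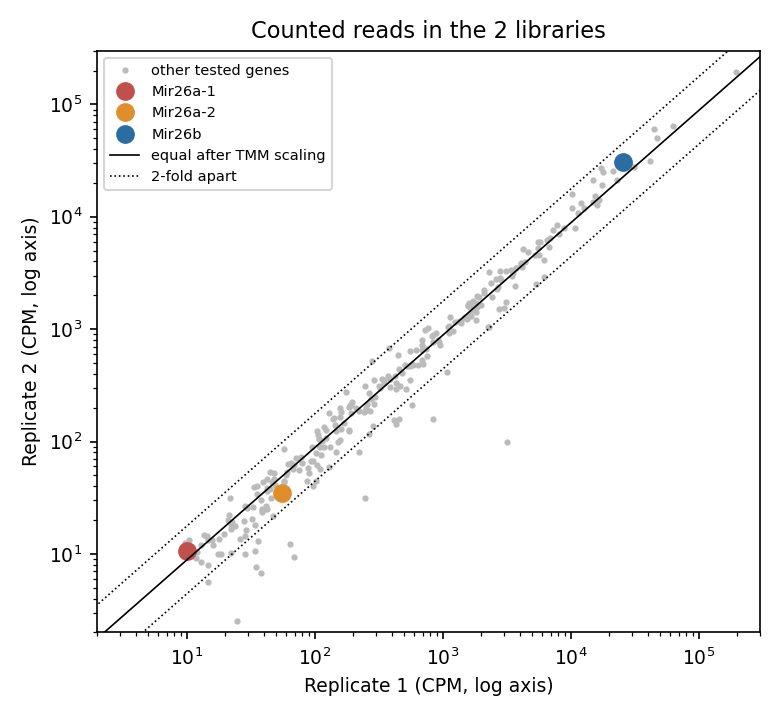
Sense-assigned reads in CPM in replicate 1 and replicate 2 (both log axes) for the 289 tested genes, with the miR-26 genes coloured, a solid line where the libraries are equal after scaling and dotted lines 2-fold away. The 3 members lie inside the dotted lines, Mir26b and Mir26a-1 above the solid line and Mir26a-2 below it.

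Of the 289 tested genes, 79 lay farther from a ratio of 1 than Mir26b, 69 farther than Mir26a-2 and 145 farther than Mir26a-1. The median distance was 0.24 on the log2 scale and 231 genes were within 1.5-fold, so Mir26b and Mir26a-2 lay beyond the median gene but within that range, and Mir26a-1 lay near the median. Among the 11 tested genes of the list with related hosts, 1 was higher in replicate 1 and 0 lower by the 2-fold rule (Mir499, at 38.4 and 6.76 CPM). Over all 289 tested genes the shares were 7.27% and 0.692%. The median log2 ratio of that list, which includes the miR-26 genes, was -0.24 against 0.02 over all tested genes. That median is the value of Mir26a-1 itself.

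The miRNA genes known to restrain the cell cycle, as the hosts of miR-26 do through the retinoblastoma protein, were taken as the related pathway: the let-7 genes with Mir98, the miR-15/16 genes with Mir195a, and the miR-34 and miR-449 genes. Of 20 measured genes on this list, 18 reached 10 CPM in both libraries. Mirlet7g at 44625 and 60911 CPM and Mirlet7i at 46903 and 50010 CPM stood above Mir26b in both libraries, Mirlet7d at 10327 and 16074 CPM and Mir98 at 7754 and 8394 CPM below it. The list's median in counted reads was 399.6 CPM, between the level of Mir26b and those of the Mir26a genes. The list includes copies with shared arms, whose reads in several positions are inferred to be left out. Of the list's 18 tested genes 0 were higher in replicate 1 and 1 was lower by the 2-fold rule, Mir15b, with 378 and 685 CPM. Over all 289 tested genes the shares were 7.27% and 0.692%. The median log2 ratio of the list was -0.26, against 0.02 over all tested genes.

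The tissue label was checked against miRNA genes of known cell types. All 15 measured markers of stomach layers (smooth muscle, epithelium, gut epithelium, endocrine cells and endothelium) reached 10 CPM in both libraries, with Mir143 at 196767 and 194858 CPM. Of the 15 measured markers of other cell types, 6 also reached it in both libraries, against 277 of all 1973 genes. Together these 15 stood at 7648 CPM in replicate 1 and at 3155 CPM in the other library. The skeletal muscle gene Mir206, at 3184 and 99.8 CPM, made up most of that gap, and the other 14 summed to 4464 and 3056 CPM. Highest among those 14 were the hepatocyte gene Mir122 at 1821 and 1210 CPM and the leukocyte gene Mir223 at 1240 and 1166 CPM. Of the 8 tested markers of other cell types, 4 were higher in replicate 1 by the 2-fold rule and 0 lower. The shares of all 289 genes tested were 7.27% and 0.692%. These 4 were Mir206, Mir133b and Mir499 of striated muscle and the erythroid gene Mir451a, at 1086 and 418 CPM. Mir208b, also of striated muscle, did not differ by that rule, at 110 and 89.2 CPM. Mir208a and Mir1a-1 of striated muscle were too low to be tested. Mir144, also erythroid, went the other way at 139 and 159 CPM. Mir124a-1, Mir124a-2, Mir124a-3, Mir133a-1 and Mir133a-2 had no counted read, all of them numbered copies. The part of these cells in the differences of Mir26b and Mir26a-2 between the libraries was not tested. Replicate 1 held 15746238 reads with 7734578 assigned in sense, and replicate 2 held 15958656 with 7983714.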

How the data were processed

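Small RNA from 2 pools of embryonic stomach was analysed as 1 group. The authors deposited raw read counts per gene, aligned to mm10 and counted on the GENCODE M4 annotation, per the deposited file descriptions. Their aligner and read counter were not given in the sources used here. Both tables have counts that ignore strand and counts on either strand, and the strand with the larger total was used. The 4 summary totals stayed out of library sizes and tests.

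Of 1973 identifiers, 1894 matched GENCODE M21 (GRCm38), the source of symbols, coordinates, hosts and hairpins. Mature sequences are from RefSeq GRCm38.p6. The text names the members, their hosts, genes with their seed and copy sets. It also names the 2 genes next above and below each member in mean CPM, and up to 4 genes a list. Mir15b, Mir499, Mir133b, Mir144, Mir208a, Mir208b, Mir1a-1 and markers without reads were chosen besides these after their values were seen. The members and lists were chosen with earlier results of these data known.

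Ratios were scaled by TMM over genes at a mean of 10 CPM in edgeR 4.0.16 (R 4.3.3), with 0.5 added to each count. A two-sided exact binomial test, run first on simulated data, was adjusted by Benjamini-Hochberg (threshold 0.05, at least 2-fold). DESeq2 1.42.0 gave other size factors. Windows were compared among hairpins, not over the genome, on both strands. Python 3.11.15, scipy 1.17.1 and matplotlib 3.10.9 were used. p-values set the difference between these 2 libraries against counting error alone.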

Additional observations from a re-analysis of the deposited data

How the results depend on the processing

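Of 57 recomputed values, 45 were labelled unchanged. Such log2 ratios kept their direction and side of the threshold, and such levels, shares and folds moved by less than the SD. Counts of genes or windows had to stay within 1.5-fold. The 45 include values from 1 replicate alone, which with 2 libraries always lie within the SD of their mean. They also include log2 ratios with no filter on low counts, which equal the main ones because the scaling was the same. The count is therefore not a measure of robustness. With all reads as the denominator Mir26b stood at 13924, Mir26a-2 at 22.3 and Mir26a-1 at 5.11 CPM, and the family share was 1.40%. Without Mir143 in the denominator Mir26b stood at 34894 CPM, Mir26a-1 at 12.8 CPM and the share was 3.50%. Counts that ignore strand put Mir26a-1 at 9.99 CPM, under the filter, so it has no ratio there. With no minimum fold the log2 ratios of -0.45 for Mir26b and 0.48 for Mir26a-2 passed the test, and 220 genes differed, against 55 with no filter on low counts and 23 in the main test. Over the settings the log2 ratio ran from -0.47 to -0.26 for Mir26b, from -0.27 to -0.06 for Mir26a-1 (adjusted p 0.284 to 0.822) and from 0.46 to 0.66 for Mir26a-2 (adjusted p 3.46e-09 to 6.31e-05, exact binomial). The lowest magnitude for Mir26b came with scaling by total sense-assigned reads, which moved the median of all tested genes from 0.02 to 0.21. TMM over all genes, added after seeing the data, gave -0.41, -0.20 and 0.52 for Mir26b, Mir26a-1 and Mir26a-2.

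Leaving out a replicate leaves 1 library with no spread: Mir26b ran from 25504 to 30625 CPM, Mir26a-1 from 10.1 to 10.5, Mir26a-2 from 34.8 to 55.2, the share from 2.56% to 3.07% and the fold of Mir26b over Mir26a from 391 to 675. Against the larger Mir26a gene alone the mean fold was 671, and against both 533. With windows of 18 or 20 bases, 65 windows of Mir26a-1 and 59 of Mir26a-2 were again found once. No paired analysis was possible because the series holds a single group. Depth limits Mir26a-1, with 78 and 84 reads.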

Other observations

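The mRNAs of the host genes were searched for matches to the shared 5p seed of miR-26. The motif was TACTTGA on the mRNA strand, in the 3′ UTR of an annotated coding transcript of each host with the hairpin in an intron (GENCODE M21). Ctdsp2, the host of Mir26a-2, held 1 match at base 1080 of a 3′ UTR of 3483 bases, shown with 8 bases on either side and the match in capitals: gttgctctTACTTGAtttgccaa. Ctdsp1 and Ctdspl held 0 matches in 1701 and 3349 bases. Of 3′ UTRs within 10% of the length of that of Ctdsp2, 22.8% held the motif, as did 9.67% of all 21007 genes with a 3′ UTR, so 1 match in such a length is common. A match in these letters is a description and not a site of action, and host mRNA was not measured here.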
